A study of Homo sapiens with 6 samples.

Results

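Kinesins are motor proteins that use ATP to walk along microtubules or to take their ends apart, and their genes were followed here as a family in 786-O, a line from a human kidney tumour of the clear cell type. Rows of the deposited table were taken as members when the gene name was KIF followed by a number and an optional letter, or KIFC followed by a number, which gave 43 of 62703 genes. Messenger RNA was sequenced in 3 libraries of OGT overexpressing cells (OGT adds the sugar O-GlcNAc to proteins of the nucleus and cytosol) and in 3 control libraries whose genotype is labelled WT. All 6 libraries came from the same line, and the sources used here do not give the vector, its promoter or whether the overexpressing cells were a clone or a pool. Values are TPM (a transcript level scaled by transcript length and by library), which hold no read total, so depth is unknown. Whether replicates were grown separately is not stated, and p-values therefore cover the spread among these libraries, which may be technical.

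Mitotic kinesins build the spindle, move and attach chromosomes, and finish cell division, and their genes are known to be switched on before mitosis. Transport kinesins carry vesicles, organelles and protein complexes along microtubules in all phases of the cell cycle, mostly towards the cell periphery. By textbook role 13 members were placed in the mitotic class and 15 in the transport class, and the other 15 include ciliary motors, regulators of microtubule growth and members with little known function.

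Promoters of the mitotic class are known for a pair of elements, the cell cycle genes homology region (CHR), read here as TTTGAA, and the CCAAT box, the site of the factor NF-Y. Windows from 250 bases before to 50 after the annotated start were taken from RefSeq (GRCh38.p14), and 34 of the 43 members matched a window. Counting a gene once and searching both strands, TTTGAA was present for 10 of 13 mitotic (76.9%), 1 of 11 transport and 0 of 10 other kinesins, against 18.2% of 27305 genes with a window. CCAAT was present for 11 mitotic (84.6%), 4 transport and 3 other kinesins, against 39.7% of all genes. The 11 TTTGAA matches of the mitotic class began between 55 bases before and 31 bases after the start. A match describes the letters only and shows no binding. Other forms of the CHR were not searched, so a window without TTTGAA is not shown to lack the element. Windows are printed 5′ to 3′ on the gene's strand for 3 mitotic members that rose and hold both motifs (KIF4A, KIF23 and KIF18B). A mitotic member whose level was nearly the same in both groups (KIF2C) is also printed. The last is the tested transport member with the largest rise on log2(TPM + 1) (KIF3B). Capitals mark TTTGAA (or TTCAAA on the other strand) and CCAAT (or ATTGG), which do not overlap in these windows.
KIF4A, chrX:70289854-70290153, plus strand: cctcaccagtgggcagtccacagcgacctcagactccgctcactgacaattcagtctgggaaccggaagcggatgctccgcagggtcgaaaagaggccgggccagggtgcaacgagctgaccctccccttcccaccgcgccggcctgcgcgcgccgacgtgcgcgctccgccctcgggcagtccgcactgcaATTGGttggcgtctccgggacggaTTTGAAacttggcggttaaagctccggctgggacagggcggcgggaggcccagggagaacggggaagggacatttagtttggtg
KIF23, chr15:69414099-69414398, plus strand: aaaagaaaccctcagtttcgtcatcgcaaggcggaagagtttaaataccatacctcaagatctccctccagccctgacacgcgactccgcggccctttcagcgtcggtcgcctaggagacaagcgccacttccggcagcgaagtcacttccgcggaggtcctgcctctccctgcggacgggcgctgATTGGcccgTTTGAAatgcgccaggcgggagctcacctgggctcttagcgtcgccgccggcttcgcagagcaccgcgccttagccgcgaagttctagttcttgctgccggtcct
KIF18B, chr17:44947724-44948023, minus strand: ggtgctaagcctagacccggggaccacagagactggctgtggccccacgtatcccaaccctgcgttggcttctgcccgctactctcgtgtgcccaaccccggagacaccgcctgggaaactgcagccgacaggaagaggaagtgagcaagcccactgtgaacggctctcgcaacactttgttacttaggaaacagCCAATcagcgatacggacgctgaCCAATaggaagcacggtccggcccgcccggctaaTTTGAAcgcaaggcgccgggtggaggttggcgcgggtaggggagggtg
KIF2C, chr1:44739587-44739886, plus strand: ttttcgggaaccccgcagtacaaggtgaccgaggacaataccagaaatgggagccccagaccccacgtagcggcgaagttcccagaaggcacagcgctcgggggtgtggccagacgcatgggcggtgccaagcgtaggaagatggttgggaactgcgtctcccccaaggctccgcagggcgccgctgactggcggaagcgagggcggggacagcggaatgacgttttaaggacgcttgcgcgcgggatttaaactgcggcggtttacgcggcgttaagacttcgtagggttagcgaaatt
KIF3B, chr20:32277401-32277700, plus strand: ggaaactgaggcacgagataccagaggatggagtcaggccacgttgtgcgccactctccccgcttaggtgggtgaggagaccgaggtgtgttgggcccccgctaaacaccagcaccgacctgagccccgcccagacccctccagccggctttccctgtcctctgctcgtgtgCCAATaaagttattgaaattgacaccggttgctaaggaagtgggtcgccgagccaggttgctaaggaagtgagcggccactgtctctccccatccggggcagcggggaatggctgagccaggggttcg
In KIF4A, KIF23 and KIF18B a CCAAT box lies a short way before TTTGAA, KIF3B holds a CCAAT box alone, and KIF2C holds neither string in this window. All 5 tested mitotic kinesins with TTTGAA (KIF11, KIF18B, KIF23, KIF4A and KIFC1) rose, and of the 3 without it KIF20A rose while KIF22 and KIF2C were not called (limma, adjusted p below 0.05), where 39.1% of all tested genes were called higher. With the trend of each library on GC content and transcript length removed, 2 of those 5 were higher, against 16% of all genes. The median log2 change of those 5 was then 0.33, and KIFC1 turned negative under median centring. The motif was chosen with these values known, and KIF5B, the only transport member with TTTGAA, rose as did 5 of 7 tested transport members with a window and no match.

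OGT itself was 352.74, 352.92 and 270.87 TPM in the overexpressing libraries, against 23.11, 22.57 and 23.62 TPM in the control libraries, as labelled. Libraries summed to between 993936 and 996952 TPM, and log2(TPM + 1) across genes correlated at 0.966 to 0.981 inside a group and at 0.940 to 0.953 between the groups. Of 7 renal markers, led by VIM and then KRT18, 6 were tested, and 3 rose (VIM, PAX8 and EPAS1) while KRT18 fell (-0.35, adjusted p = 0.00103). Over all tested genes 39.1% were called higher and 9.7% lower. Median log2 changes were 0.33 for the tested renal markers and 0.30 for all genes. The renal list summed to between 3510 and 3528 TPM in overexpressing and between 2511 and 2718 TPM in control libraries, with LRP2 at 0.01 TPM or less. CDH6 of that list was 28.69 TPM in control replicate 2, against 2.69 and 3.05 TPM in the other controls. Neuronal markers (RBFOX3, SYT1 and SNAP25) summed to at most 1.8 TPM, and those of multiciliated cells (FOXJ1, DNAH9 and CFAP43) to at most 0.5 TPM, in any library. Of the endothelial markers CDH5 was listed at 0 in every library, and the list summed to between 0.16 and 2.68 TPM in overexpressing and between 0.76 and 4.77 TPM in control libraries. Of the leukocyte markers the lysosomal gene CD68 was at 101.55 to 119.57 TPM in overexpressing and 60.59 to 67.17 TPM in control libraries, CD3E was at most 0.23 TPM, and PTPRC reached 12.23 TPM in control replicate 1 but at most 0.07 TPM elsewhere.

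Across the family, 27 members reached 1 TPM in at least 3 libraries and were tested with limma on log2(TPM + 1), with p-values adjusted by Benjamini-Hochberg over 12645 genes and a threshold of 0.05. OGT overexpression went with higher levels of 15 kinesins and lower levels of 2, and 10 were not called. Among all tested genes 39.1% were called higher and 9.7% lower, and the median log2 change was 0.30, so kinesin changes are to be read against an upward shift. The tested kinesins had a median log2 change of 0.49, which is 0.19 above that of all genes. KIF2A and KIF16B lay below 1 TPM in every control library and passed the filter through the overexpressing libraries alone, so their differences were partly set by the filter. Levels in every overexpressing library lay above those in every control library for 16 of the 27, and below for 3, where 46.2% and 12.4% of all tested genes did so.

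**Figure D1:**
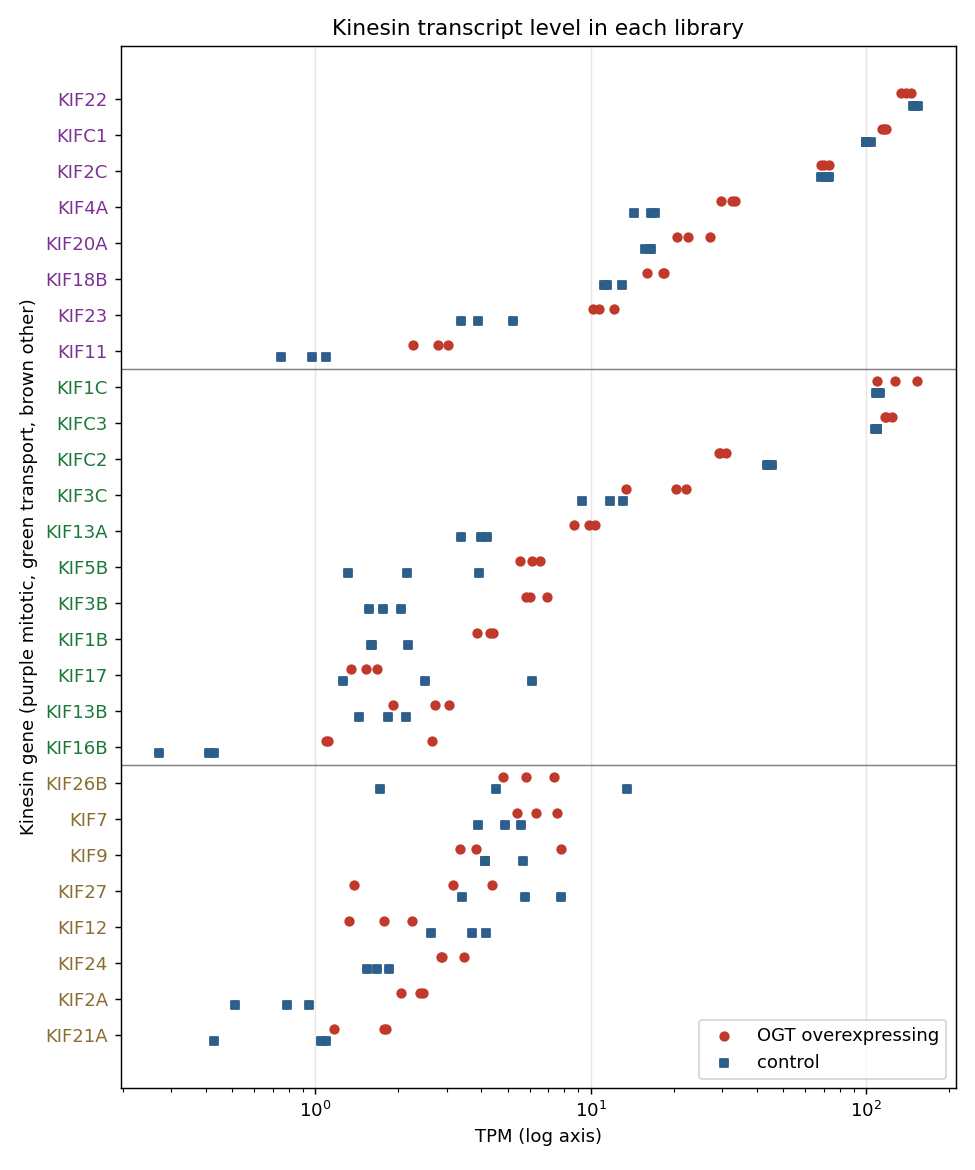
TPM of the 27 tested kinesins (log axis) in the 3 OGT overexpressing libraries (red circles) and the 3 control libraries (blue squares), ordered within each class by mean level. The groups separate for 16 genes with overexpression above and 3 below, while the most abundant members (KIF22, KIF1C, KIFC3, KIFC1 and KIF2C) lie close together in both groups.

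A small part of the family carried most of its transcripts. KIF22, KIF1C, KIFC3, KIFC1, KIF2C and KIFC2 made up 77.3%, 78.0% and 78.3% of the summed kinesin TPM in the overexpressing libraries, against 83.2%, 85.0% and 84.4% in the control libraries. The family summed to 778 ± 37.4 TPM in overexpressing and 697 ± 6.98 TPM in control cells (SD, n = 3 each). Mitotic kinesins held 53.6 ± 1.12% of that sum in overexpressing and 53.6 ± 0.629% in control cells. Transport kinesins held 42.5 ± 1.48% in overexpressing and 41.7 ± 0.190% in control cells. The other kinesins held 3.88 ± 0.379% in overexpressing and 4.64 ± 0.817% in control cells. For every class the range of its share overlapped between the groups.

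**Figure D2:**
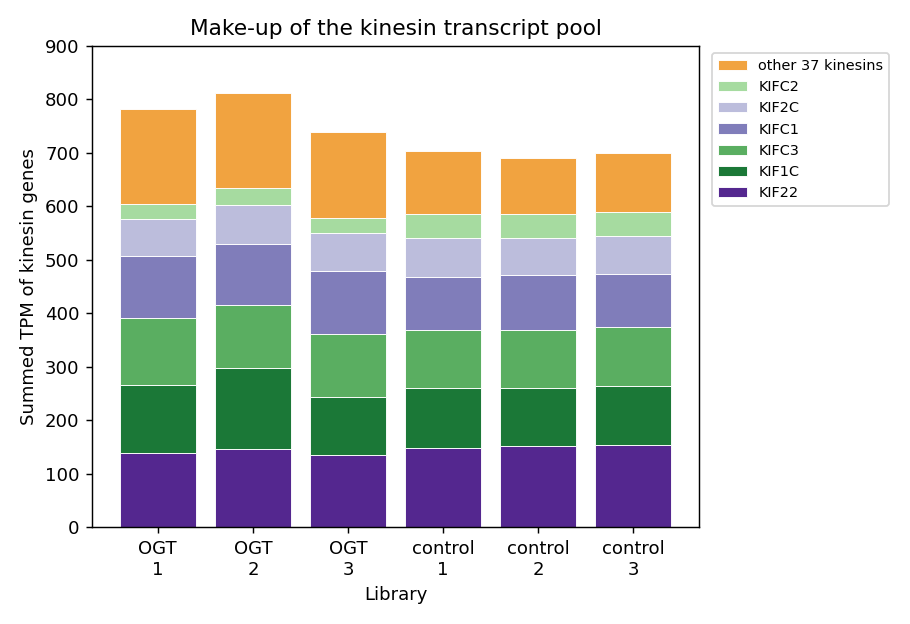
Summed TPM of all 43 kinesin genes in each library, split into the 6 most abundant members and the rest (orange; purple shades are mitotic, green shades transport). The 6 most abundant genes held 77.3% to 78.3% of the sum in OGT overexpressing and 83.2% to 85.0% in control libraries.

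Of the mitotic class 8 of 13 members were tested, and 6 rose while 0 fell, a count that is also 0 at an unadjusted p below 0.05, where 39.1% of all tested genes were called higher and 9.7% lower. The class had 3 higher and 1 lower by quantile normalization (20.2% and 17.8% of all genes). It had 2 higher and 3 lower by median centring (15.3% and 24.2% of all genes). With the GC and length trend removed it had 2 higher and 2 lower (16% and 12.8% of all genes). As deposited its median log2 change was 0.51, or 0.21 above that of all genes. Motors that set up the spindle were unequal in level and in change. KIF11, the plus-end motor that pushes spindle poles apart, was 2.79, 3.03 and 2.27 TPM in overexpressing and 0.97, 1.09 and 0.75 TPM in control libraries, with no overlap (log2 change 0.93, SE 0.19, adjusted p = 0.00611). KIFC1, a minus-end motor that focuses poles and clusters extra centrosomes, was 116.39, 114 and 118.44 TPM in overexpressing and 100.11, 103.67 and 99.45 TPM in control libraries (0.20, adjusted p = 0.0102). KIFC1 was separated in every library, yet its change was 0.10 below the median of all genes and turned to -0.19 (adjusted p = 0.0359) when each library was centred on its median. KIF15, which can take over from KIF11, was not tested and was 0.57, 1.41 and 0.55 TPM in overexpressing and 0.29, 0.70 and 0.33 TPM in control libraries, overlapping.

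The chromosome-arm motors KIF4A and KIF22 (chromokinesins, which push chromosomes towards the spindle equator) differed in their values. KIF4A (ENSG00000090889, chrX:70290090-70420832, plus strand, GENCODE release 29 on GRCh38) was 33.28, 32.66 and 29.82 TPM in overexpressing and 17.14, 14.34 and 16.5 TPM in control libraries. The groups were far apart, with a log2 change of 0.96 (SE 0.10, adjusted p = 3.85e-04). KIF22, the most abundant kinesin, was 139.25, 145.43 and 134.11 TPM in overexpressing and 147.99, 150.94 and 153.57 TPM in control libraries, without a call (-0.11 on the log2 scale, adjusted p = 0.0916), although the groups did not overlap. KIF22 was called lower by quantile normalization (-0.21, adjusted p = 0.00935), median centring (-0.50, adjusted p = 4.20e-04) and removal of the GC and length trend (-0.15, adjusted p = 0.0336). The ratio of KIF4A to KIF22, which a single factor per library does not alter, was 0.239, 0.225 and 0.222 in overexpressing and 0.116, 0.0950 and 0.107 in control libraries. A ratio of 2 genes does not remove a trend on GC content. The reference transcript held 46.4% GC for KIF4A and 58.9% for KIF22. KIF4B, an intronless copy of KIF4A whose reads can be confused with it, reached 0.33 TPM. KIF4A shares 77 exon bases with PDZD11 on the other strand, a gene at 134 TPM in overexpressing and 184 TPM in control cells on average, and the strand of the libraries is not stated.

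Motors that shorten microtubules or limit their length were also unequal. KIF2C (MCAK), which frees wrongly attached kinetochores, was 68.47, 73.53 and 70.16 TPM in overexpressing and 73.41, 68.41 and 71.9 TPM in control libraries. These ranges overlap almost fully (log2 change -0.01, SE 0.06, adjusted p = 0.896), and KIF2C was called lower after median centring (-0.40, adjusted p = 0.00154) and after removal of the GC and length trend (-0.33, adjusted p = 0.00488). KIF18B, which shortens astral microtubules, was 18.42, 18.33 and 16 TPM in overexpressing and 11.22, 11.5 and 12.97 TPM in control libraries, with no overlap (0.53, adjusted p = 0.00646). KIF18A, which dampens chromosome oscillation, was not tested, at 1.13, 1.31 and 0.83 TPM in overexpressing and 0.94, 0.75 and 0.63 TPM in control libraries, overlapping.

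Of the spindle midzone and cytokinesis motors, KIF23 and KIF20A were higher as deposited, and KIF14 and KIF20B were too low to test. With the GC and length trend removed neither KIF23 nor KIF20A was called (0.54 and 0.07, adjusted p = 0.0611 and 0.676). KIF23 (MKLP1, the motor of centralspindlin; ENSG00000137807, chr15:69414246-69448427, plus strand) was 12.12, 10.17 and 10.68 TPM in overexpressing and 3.39, 5.22 and 3.9 TPM in control libraries. Its log2 change of 1.23 (SE 0.17, adjusted p = 0.00131) was the largest of the tested mitotic class with a pseudocount of 1. A pseudocount of 0.1 gave 1.40 for KIF23 and 1.44 for KIF11. The ratio of group means was also larger for KIF11 (2.88 against 2.64). The ratio of KIF23 to KIF2C was 0.156 ± 0.0196 in overexpressing and 0.0589 ± 0.0156 in control cells (SD, n = 3 each), without overlap. Their reference transcripts differ in GC content, at 42.3% for KIF23 and 50.4% for KIF2C. KIF20A (MKLP2), which brings the chromosomal passenger complex to the midzone, was 22.63, 27.14 and 20.64 TPM in overexpressing and 16.5, 16.39 and 15.72 TPM in control libraries (0.50, adjusted p = 0.0103). It shares 132 exon bases with BRD8 and 68 with CDC23 on the other strand. KIF14, which acts with citron kinase at the midbody, was not tested and was 0.91, 0.69 and 0.53 TPM in overexpressing and 0.13, 0.08 and 0.11 TPM in control libraries. KIF20B, a midbody motor, was likewise not tested, at 0.81, 0.60 and 0.75 TPM in overexpressing and 0.20, 0.27 and 0.43 TPM in control libraries. Neither gene overlapped between groups, but both stayed below 1 TPM. Of all tested genes 46.2% lay above the controls in every overexpressing library.

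Of the transport class 11 of 15 members were tested, and 7 rose and 1 fell, where 39.1% of all genes were called higher and 9.7% lower. Testing genes at every level left 4 transport members higher and 1 lower of 13 tested. The shares of all genes called higher and lower were not computed for that setting. Its median log2 change over all genes was 0.08, against 0.30 with the filter. The class had 2 higher and 1 lower by quantile normalization (20.2% and 17.8% of all genes). It had the same counts with the GC and length trend removed (16% and 12.8% of all genes). By median centring it had 2 higher and 2 lower (15.3% and 24.2% of all genes). As deposited the median log2 change was 0.65, or 0.35 above that of all genes, and the range of -0.61 to 1.38 was wider than in the mitotic class (-0.11 to 1.23). Among the 5 members with a mean of at least 5 TPM the median was 0.22, against 0.26 for all genes in that setting. Kinesin-1, the conventional motor of vesicles and mitochondria, was represented by its ubiquitous heavy chain alone. KIF5B was 5.55, 6.1 and 6.53 TPM in overexpressing and 3.92, 2.16 and 1.31 TPM in control libraries, with no overlap but a wide spread among controls. Its log2 change was 1.10 (SE 0.28, adjusted p = 0.0169), and the call was lost without OGT replicate 2 or 3 (log2 change 1.09 and 1.05, adjusted p = 0.0516 and 0.0521). The neuronal heavy chain gene KIF5A was listed at 0 in every library, and KIF5C reached at most 0.13 TPM.

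Kinesin-2, which drives transport into cilia and of late endosomes, pairs KIF3A with KIF3B or KIF3C. KIF3B (ENSG00000101350, chr20:32277664-32335011, plus strand) was 6.94, 6.02 and 5.81 TPM in overexpressing and 1.76, 2.05 and 1.57 TPM in control libraries, 3.49 times the control mean. Its log2 change of 1.38 (SE 0.16, adjusted p = 7.29e-04) was the largest of the tested kinesins with a pseudocount of 1. A pseudocount of 0.1 gave 1.75 for KIF3B and 1.77 for KIF16B, which stood at 4.37 times its control mean. KIF3A, the partner of KIF3B, was not tested and was 2.23, 0.71 and 0.71 TPM in overexpressing and 0.24, 0.14 and 0.31 TPM in control libraries, without overlap. KIF3C was the most abundant of the 3 genes, at 20.48, 22.26 and 13.4 TPM in overexpressing and 13.11, 11.7 and 9.31 TPM in control libraries. The lowest overexpressing library was just above the highest control (0.65, adjusted p = 0.0365), and the call was lost without OGT replicate 1 or 2 or control replicate 2 or 3 (log2 change 0.52 to 0.68, adjusted p from 0.0730 to 0.115) and with no filter on low values (adjusted p = 0.0887). The ratio of KIF3B to KIF3C was 0.339, 0.270 and 0.434 in overexpressing and 0.134, 0.175 and 0.169 in control libraries. Here too GC content differs, at 47.6% for KIF3B and 56.0% for KIF3C. KIF17, a homodimeric motor of the same family, was 1.68, 1.35 and 1.53 TPM in overexpressing and 2.5, 1.26 and 6.13 TPM in control libraries and was not called (-0.61, adjusted p = 0.25).

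Kinesin-3 motors carry synaptic vesicle precursors, mitochondria and endosomes over long distances. KIF13A (ENSG00000137177, chr6:17759183-17987623, minus strand), which moves recycling endosomes, was 8.71, 10.34 and 9.84 TPM in overexpressing and 3.39, 4.19 and 4 TPM in control libraries (1.13, SE 0.14, adjusted p = 8.76e-04). Its paralog KIF13B was 3.06, 2.71 and 1.91 TPM in overexpressing and 1.44, 1.84 and 2.14 TPM in control libraries, overlapping and not called (0.34, adjusted p = 0.224, and -0.05 and -0.04 after median centring and quantile normalization). KIF1B, a motor of mitochondria and vesicle precursors, was 4.41, 4.32 and 3.87 TPM in overexpressing and 1.59, 1.61 and 2.17 TPM in control libraries (0.90, adjusted p = 0.0052). The paralog KIF1C stood far above it, at 127.28, 152.63 and 109.28 TPM in overexpressing and 111.96, 108.45 and 110.7 TPM in control libraries. KIF1C overlapped and was not called (0.22, adjusted p = 0.151), but was called without OGT replicate 3 (0.33, adjusted p = 0.0222), and its change turned to -0.17 after median centring and -0.10 after removal of the GC and length trend. KIF16B, an early endosome motor, was 1.09, 1.11 and 2.65 TPM in overexpressing and 0.27, 0.43 and 0.41 TPM in control libraries (0.88, adjusted p = 0.0303), a call lost without any of the 3 control replicates (0.83 to 0.92, adjusted p from 0.0635 to 0.0760) and with no filter (adjusted p = 0.0706). KIF16B passed the filter through the overexpressing libraries alone, so its difference was partly set by the filter. KIF1A, a neuronal motor, was listed at 0 in every library.

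The minus-end motors KIFC2 and KIFC3 differed in direction. KIFC2 was 29.51, 30.9 and 29.29 TPM in overexpressing and 43.67, 45.41 and 44.2 TPM in control libraries, a tight and complete separation. Its log2 change of -0.56 (SE 0.06, adjusted p = 5.80e-04) was the only fall in the transport class that passed the test, and KIFC2 shares 791 exon bases with FOXH1 on the other strand, a gene averaging at most 0.1 TPM in either group. KIFC3, which acts at cell junctions and in Golgi positioning, was 124.37, 117.61 and 117.3 TPM in overexpressing and 107.99, 109.2 and 109.85 TPM in control libraries. KIFC3 rose by 0.13 (adjusted p = 0.0480), less than the median of all genes, and lost its call when any single library was left out (0.11 to 0.15, adjusted p from 0.0525 to 0.151). Median centring turned it to -0.25 (adjusted p = 0.00724), so its direction depends on scaling.

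The other 15 kinesins held 8 tested members, of which 2 rose and 1 fell, where 39.1% of all tested genes were called higher and 9.7% lower. The class had a median log2 change of 0.28, close to that of all genes. KIF2A, a microtubule depolymerase of interphase cells and spindle poles, was 2.41, 2.47 and 2.05 TPM in overexpressing and 0.51, 0.95 and 0.79 TPM in control libraries (0.93, adjusted p = 0.00683). Its abundant relative KIF2C was not called, and the ratio of KIF2A to KIF2C was 0.0327 ± 0.00309 in overexpressing and 0.0106 ± 0.00349 in control cells (SD, n = 3 each). Reference transcripts held 41.6% GC for KIF2A and 50.4% for KIF2C. KIF2A lay below 1 TPM in every control library, so its call and its ratio to KIF2C were partly set by the filter. KIF2A shares 428 exon bases with IPO11 on the same strand. KIF24, which restrains ciliogenesis at the mother centriole, was 3.47, 2.85 and 2.88 TPM in overexpressing and 1.85, 1.68 and 1.54 TPM in control libraries (0.59, adjusted p = 0.0253), a call lost without OGT replicate 1 or 2 or control replicate 2 or 3 (0.52 to 0.63, adjusted p from 0.0593 to 0.0861) and with a replicate block (adjusted p = 0.0620). KIF12, a kinesin of kidney and liver epithelium, was 1.33, 1.77 and 2.25 TPM in overexpressing and 3.7, 2.64 and 4.17 TPM in control libraries (-0.69, adjusted p = 0.0365), with the call lost without OGT replicate 1 or 2 or control replicate 1 or 3 (-0.70 to -0.57, adjusted p from 0.0828 to 0.112). That call was also lost with a replicate block, with no filter on low values and with the GC and length correction (adjusted p = 0.0579, 0.0776 and 0.0658).

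Ciliary and growth-regulating members mostly overlapped between groups. KIF27 was 3.17, 4.38 and 1.38 TPM in overexpressing and 5.76, 7.77 and 3.42 TPM in control libraries and was not called (-0.77, adjusted p = 0.129), but was called lower by quantile normalization, median centring, the GC and length correction (-1.52, adjusted p = 0.0212) and a replicate block (adjusted p = 0.0252). KIF7, a regulator of Hedgehog signalling in the cilium, was 7.54, 5.38 and 6.32 TPM in overexpressing and 5.58, 3.89 and 4.9 TPM in control libraries and was not called (0.36, adjusted p = 0.147). KIF21A, which limits microtubule growth at the cell cortex, was 1.17, 1.78 and 1.81 TPM in overexpressing and 1.05, 1.09 and 0.43 TPM in control libraries (0.49, adjusted p = 0.126). KIF9, a motor of motile cilia, was 3.36, 3.82 and 7.83 TPM in overexpressing and 5.69, 4.15 and 4.12 TPM in control libraries (0.02, adjusted p = 0.953) and shares 870 exon bases with its antisense gene KIF9-AS1. KIF26B varied most among controls, at 7.33, 4.82 and 5.84 TPM in overexpressing and 13.49, 4.52 and 1.72 TPM in control libraries (0.20, adjusted p = 0.792). Its untested relative KIF26A was at 0.04 to 0.07 TPM in the overexpressing libraries and at 0.10, 0.05 and 8.22 TPM in the controls, so that control replicate 3 alone held it. KIF6, KIF21B, KIF25 and KIF19 were not tested, with at most 0.96 TPM in any library, and KIF2B and the pseudogene KIF28P were listed at 0 in all of them.

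**Figure D3:**
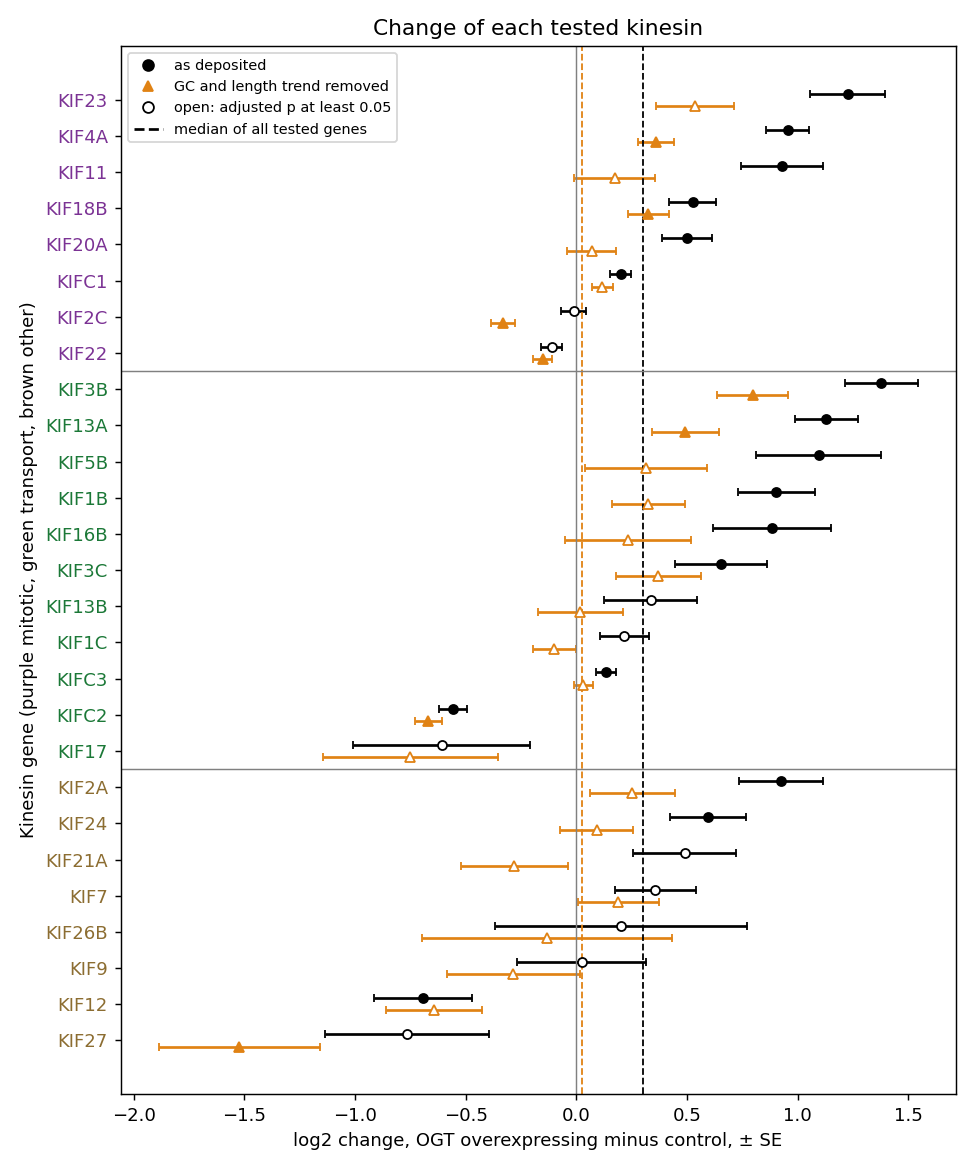
log2 change (OGT overexpressing minus control, ± SE, n = 3 each) of the 27 tested kinesins on log2(TPM + 1) as deposited (black circles) and after removal of the GC and length trend (orange triangles). Filled symbols passed an adjusted p below 0.05, and dashed lines mark the median of all tested genes, 0.30 as deposited and 0.03 with the trend removed. As deposited 15 are called higher and 2 lower, and with the trend removed 4 higher and 4 lower.

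How many kinesins were called depended on the scaling of the libraries. Quantile normalization called 5 higher and 4 lower, where 20.2% and 17.8% of all genes were called. Median centring called 4 higher and 7 lower, against 15.3% and 24.2% of all genes. After removal of the trend that each library showed on GC content and transcript length, 4 were higher (KIF3B, KIF13A, KIF4A and KIF18B) and 4 lower (KIFC2, KIF22, KIF2C and KIF27), against 16% and 12.8% of 12348 genes with a reference transcript. KIF3B, KIF13A and KIF4A were called higher, and KIFC2 lower, under all 3 of these scalings. After the trend was removed the log2 changes were 0.80 for KIF3B (adjusted p = 0.0113), 0.49 for KIF13A (adjusted p = 0.0481), 0.36 for KIF4A (adjusted p = 0.0182) and -0.67 for KIFC2 (adjusted p = 4.86e-04). KIF23 was called by quantile normalization and median centring (0.82 and 0.84) but not after the trend was removed (0.54, adjusted p = 0.0611). KIF11 was called by quantile normalization alone of the 3 (0.56, adjusted p = 0.0487), and KIF18B after the trend was removed alone (0.33, adjusted p = 0.0403). KIF20A, KIFC1, KIF1B, KIF5B, KIF16B, KIF3C, KIFC3, KIF2A and KIF24 were called higher under none of the 3. The median of the mitotic class was 0.15 and that of the transport class 0.23 after the trend was removed, against 0.03 for all genes.

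Base composition ran along with both the levels and the changes of the family. The 6 most abundant kinesins had reference transcripts of 50.4% to 67.8% GC, and log2 changes of -0.56 to 0.22. Among kinesins of at most 45% GC (KIF2A, KIF23, KIF11, KIF21A, KIF27 and KIF5B) 4 of 6 rose, where 55.7% of all genes in that range were called higher, and the median log2 change was 0.93 against 0.70 for all genes there. Between 45% and 55% GC 7 of 12 rose, where 41.3% of all genes did, with a median of 0.55 against 0.33. Among those above 55% GC 4 of 9 rose and 2 fell, where 22.6% of all genes were called higher and 18.4% lower, with a median of 0.13 against 0.05. Over the 27 tested kinesins the Spearman correlation of change with GC content was -0.61 and with transcript length 0.43, against -0.47 and 0.39 over 12348 genes. With the trend removed the correlation with GC content was -0.35 over the tested kinesins and -0.03 over all genes. It was -0.50 in the mitotic and -0.56 in the transport class, so the corrected kinesin values still ran with GC content. These are descriptions over genes measured in the same 6 libraries, and the part of base composition in the kinesin changes was not tested beyond the values with the trend removed.

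**Figure D4:**
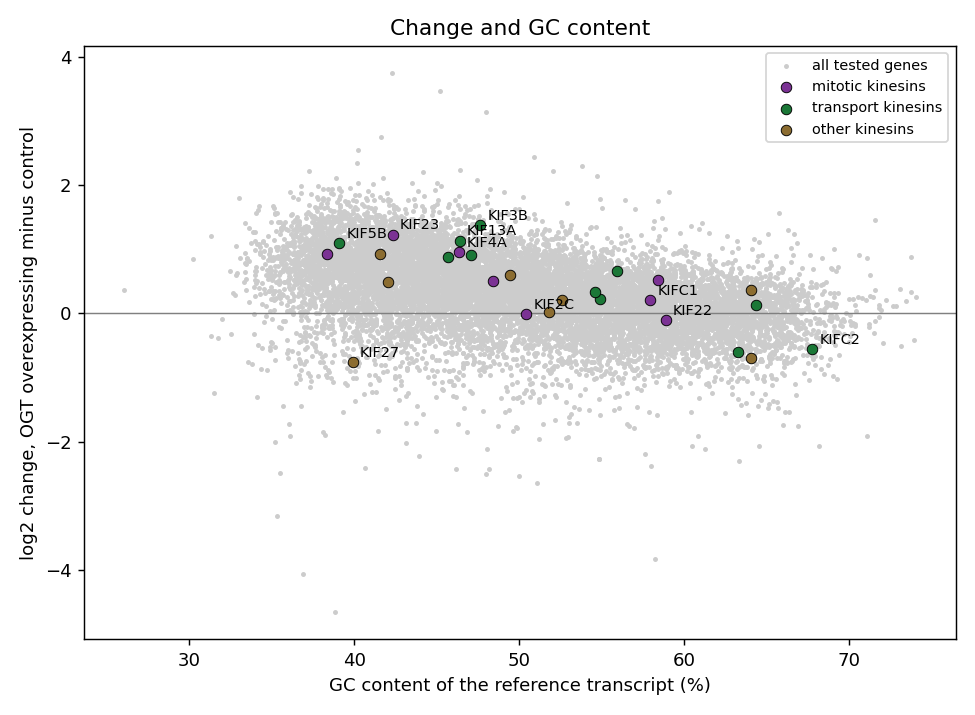
log2 change (OGT overexpressing minus control) against the GC content of the reference transcript for 12348 tested genes (grey) and the 27 tested kinesins (purple mitotic, green transport, brown other). Kinesins slope downward with GC content as all genes do (Spearman correlations -0.61 and -0.47), with KIF27 low for its GC content.

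Partner genes of the motors were read from lists written with earlier results of these data known. Of 17 tested spindle and midzone partners 14 rose and 1, the germline kinase gene AURKC, fell, against 39.1% and 9.7% of all tested genes, with a median log2 change of 0.77 against 0.30. AURKC lay below 1 TPM in every overexpressing library and passed the filter through the control libraries alone. Its difference was thus partly set by the filter. The AURKC call was lost with the GC and length correction and with a replicate block (adjusted p = 0.0691 and 0.0544). TPX2, which loads KIF11 on the spindle, was 104.06, 98.98 and 95.32 TPM in overexpressing and 46.31, 48.51 and 50.72 TPM in control libraries (1.02, adjusted p = 7.27e-05). PRC1, the midzone crosslinker that recruits KIF4A, was 49.17, 48.85 and 49.15 TPM in overexpressing and 23.48, 23.62 and 27.93 TPM in control libraries (0.95, adjusted p = 2.50e-04). The ratio of KIF4A to PRC1 was 0.651 ± 0.0383 in overexpressing and 0.643 ± 0.0761 in control cells (SD, n = 3 each), overlapping. That of KIF23 to RACGAP1, also of the list, was 0.176 ± 0.0269 in overexpressing and 0.113 ± 0.0153 in control cells, without overlap. The microtubule polymerase gene CKAP5 and the kinase gene AURKA rose by 1.28 and 0.91 (adjusted p = 8.72e-05 and 2.93e-04). CENPE, a kinetochore kinesin that the name rule leaves out, was below the filter. After the GC and length correction 8 partners were higher and 0 lower (1 lower at an unadjusted p below 0.05), against 16% and 12.8% of all genes, with a median of 0.17, and TPX2, PRC1, CKAP5 and AURKA were among those higher.

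General proliferation genes were also mostly higher. Of 11 tested, 8 rose while 0 fell, also with an unadjusted p below 0.05, against 39.1% and 9.7% of all genes. The list summed to between 688 and 720.1 TPM in overexpressing and between 548 and 566 TPM in control libraries. MKI67 was 17.65, 17.09 and 17.22 TPM in overexpressing and 4.5, 4.51 and 6.03 TPM in control libraries (1.62, adjusted p = 1.99e-04). CCNA2, BUB1 and PCNA rose by 1.17, 0.90 and 0.76, and with the GC and length trend removed 5 genes were higher and 1, MCM2, lower (16% and 12.8% of all genes), with BUB1 no longer called (0.23, adjusted p = 0.158). In bulk RNA a larger share of dividing cells and more transcript per cell cannot be told apart, and the part of either in the kinesin values was not tested.

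Cargo adaptors and light chains split. Of 19 tested, 9 rose and 2 fell, near the 39.1% and 9.7% of all genes, with a median log2 change of 0.31 against 0.30. After the GC and length correction 6 were higher and 3 lower, where 16% and 12.8% of all genes were. SPAG9 (JIP4), FEZ2 and KIFBP rose by 1.29, 1.16 and 1.19 (adjusted p = 2.93e-04, 3.58e-04 and 0.00105), with changes of 0.52, 0.70 and 0.66 after that correction. The 2 that fell were FEZ1, a kinesin-1 adaptor (-1.14, adjusted p = 0.00557), and MAPK8IP3 (JIP3; -0.48, adjusted p = 0.0216), named because they completed the falls. Of 21 tested genes of dynein and dynactin, the opposing minus-end motor, 10 rose and 3 fell, also near the shares of all genes (39.1% and 9.7%), with a median of 0.29 against 0.30. DYNC1LI2, DYNC1I2 and DYNC1H1, encoding dynein subunits, rose by 1.44, 1.25 and 0.55, and the dynactin subunit gene DCTN3 fell by 0.55 on the log2 scale (adjusted p = 2.14e-04, 2.25e-04, 3.39e-04 and 3.00e-04). After the GC and length correction 4 were higher and 6 lower, against 16% and 12.8% of all genes, with a median of -0.07.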

How the data were processed

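RNA from 6 libraries of 786-O cells was prepared with a TruSeq RNA kit per the labels' protocols, 3 from OGT overexpressing and 3 from control cells. TPM values per gene were deposited by the authors. Aligner, counter and annotation are not stated in those sources. GRCm38 and mm10, both mouse builds, stand in the submitters' processing notes, while the gene identifiers are human Ensembl ones. Columns were mapped to groups and replicate numbers by the sample titles, which state no pairing.

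A level of 1 TPM or more in 3 or more libraries was required, which left 12645 genes. These were tested by limma 3.58.1 (R 4.3.3) on log2(TPM + 1) (eBayes with trend and robust, two-sided, Benjamini-Hochberg over all genes, threshold 0.05) for OGT overexpression minus control. A log2 change of TPM with a pseudocount of 1 understates the change of low genes. GC content and length came from the longest GENCODE release 29 transcript of each gene, protein-coding where there is one (97.7% of tested genes matched), and each library's trend on them (natural splines, 4 degrees of freedom) was removed as an alternative. Other alternatives were a pseudocount of 0.1, no filter, a mean of at least 5 TPM, quantile normalization, median centring, a replicate block and leaving out each library. Numbers did not pair samples: same-numbered deviations correlated at -0.0194, 0.00264 and 0.0166. Promoter windows came from RefSeq on GRCh38.p14.

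Every member is named, and of each partner list up to 4 called genes with the smallest adjusted p, of which 1 is not reported here. The members, the classes and the lists were chosen with earlier results of these data known. The promoter motifs were chosen after the values were seen, as were AURKC, FEZ1, MAPK8IP3, CENPE, MCM2 and RACGAP1. TPM holds no read total, so no counting interval is given.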

Additional observations from a re-analysis of the deposited data

How the results depend on the processing

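As deposited, 15 kinesins were higher and 2 lower, with median log2 changes of 0.51 for the mitotic and 0.65 for the transport class, and 6168 genes were called in all. A pseudocount of 0.1 moved none of the calls of 27 kinesins and 16 partner genes. With no filter on low values 13 kinesins were higher, now with KIF14, and 1 lower, and the mitotic median was 0.41. The median of all genes was 0.08 in that setting, and 5056 genes were called in all. With a mean of at least 5 TPM 8 were higher and 1 lower among 14 tested, and the transport median was 0.22. All genes had a median of 0.26 there, and 4737 were called, with the shares higher and lower not computed. Quantile normalization gave 5 higher and 4 lower (medians 0.19 and 0.30), and median centring 4 higher and 7 lower (0.12 and 0.27). The GC and length correction gave 4 higher and 4 lower (0.15 and 0.23) and 3556 genes in all. A replicate block gave 13 higher and 2 lower, and together with the GC and length correction 1 higher and 3 lower (0.15 and 0.23), with 2834 genes in all. Libraries with the same number were not found to be pairs, and 1 of 6 correlated best with its own number. Leaving out each library gave 11 to 14 kinesins higher and 1 to 2 lower, and the fall of KIF12 was lost in 4 of those 6 fits. The causes of these differences were not tested.

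Signs turned for kinesins whose changes as deposited ran from -0.01 to 0.49. By quantile normalization KIF26B was -0.21, KIF7 -0.0625, KIF9 -0.38 and KIF13B -0.0412. By median centring KIFC1 was -0.19, KIFC3 -0.25, KIF1C -0.17, KIF26B -0.19, KIF7 -0.0317, KIF9 -0.36 and KIF13B -0.0519. With the GC and length correction, alone or with a replicate block, KIF21A and KIF9 were -0.28, KIF26B -0.13 and KIF1C -0.10. Leaving out a library gave -0.0389 to 0.0123 for KIF2C, -0.37 to 0.84 for KIF26B and -0.29 to 0.22 for KIF9. Depth is unknown, and values near 1 TPM are the least certain.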
